A study of Homo sapiens with 4 samples.

Results

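Peroxisome proliferator-activated receptors (PPARs), the retinoid X receptors (RXRs) they pair with and the coregulators bound by the pair were followed by their transcript levels in liver cancer cells. The 9 genes, PPARA, PPARD, PPARG, RXRA, RXRB, PPARGC1A, PPARGC1B, NCOR1 and MED1, were chosen by symbol, and each had 1 row among the 18398 transcripts measured (18382 symbols). RNA sequencing was done on Huh7 and Huh1, established human hepatocellular carcinoma cell lines, and each line was transfected with an siRNA against ODC1, whose product, ornithine decarboxylase, makes putrescine, from which polyamines are built, or with a negative control (NC) siRNA. The 4 groups were therefore Huh7 with ODC1 siRNA, Huh7 with NC siRNA, Huh1 with ODC1 siRNA and Huh1 with NC siRNA. Each group was 1 library, so no value had a replicate within its line, and the labels give neither the dose of siRNA nor the time after transfection. Values are RPKM, reads scaled to transcript length and to library depth, as the authors deposited them. RPKM is scaled to length, so levels of different genes can be set side by side.

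PPARs are ligand-activated transcription factors that sense fatty acids and bind DNA as pairs with an RXR. In liver, PPARα drives fatty acid oxidation and ketone body synthesis, PPARδ acts on fatty acid and glucose use in many tissues, and PPARγ, the main regulator of adipocyte formation, promotes lipid storage. Without ligand the pair can hold a corepressor complex built on NCOR1, and with ligand it recruits coactivators, among them the PGC-1 proteins and the Mediator complex, which MED1 links to nuclear receptors.

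The promoters of 4 receptor genes are shown because these genes make up 2 patterns in the values below: PPARA and RXRA were lower in Huh7 than in Huh1, while PPARG and RXRB were at nearly the same level in both lines. Sequences are from RefSeq (GRCh38.p14), 300 bases each, from 250 bases before to 50 bases after the start nearest to that of the measured transcript, on the strand of the gene. Capitals mark the GC box GGGCGG and the nuclear receptor half-site AGGTCA, searched on both strands with overlapping copies counted separately.
PPARA, chr22:46150276-46150575, plus strand: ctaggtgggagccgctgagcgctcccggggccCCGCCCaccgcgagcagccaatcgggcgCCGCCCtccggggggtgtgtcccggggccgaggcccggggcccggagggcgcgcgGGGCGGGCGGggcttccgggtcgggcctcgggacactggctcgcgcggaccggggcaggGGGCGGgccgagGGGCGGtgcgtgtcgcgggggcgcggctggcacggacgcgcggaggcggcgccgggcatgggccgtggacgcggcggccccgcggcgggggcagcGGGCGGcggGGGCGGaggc
RXRA, chr9:134326205-134326504, plus strand: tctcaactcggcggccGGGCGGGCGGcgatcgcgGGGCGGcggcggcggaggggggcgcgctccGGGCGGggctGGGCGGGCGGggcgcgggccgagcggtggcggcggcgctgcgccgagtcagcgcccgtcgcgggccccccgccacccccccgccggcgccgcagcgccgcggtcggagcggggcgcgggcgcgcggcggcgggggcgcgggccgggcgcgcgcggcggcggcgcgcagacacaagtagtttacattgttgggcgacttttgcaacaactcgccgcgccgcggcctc
PPARG, chr3:12287118-12287417, plus strand: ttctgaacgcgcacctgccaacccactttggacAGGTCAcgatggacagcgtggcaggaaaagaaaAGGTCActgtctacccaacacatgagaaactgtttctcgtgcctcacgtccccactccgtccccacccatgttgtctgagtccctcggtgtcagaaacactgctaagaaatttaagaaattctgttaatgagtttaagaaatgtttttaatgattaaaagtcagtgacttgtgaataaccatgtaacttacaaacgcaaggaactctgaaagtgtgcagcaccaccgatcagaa
RXRB, chr6:33200616-33200915, minus strand: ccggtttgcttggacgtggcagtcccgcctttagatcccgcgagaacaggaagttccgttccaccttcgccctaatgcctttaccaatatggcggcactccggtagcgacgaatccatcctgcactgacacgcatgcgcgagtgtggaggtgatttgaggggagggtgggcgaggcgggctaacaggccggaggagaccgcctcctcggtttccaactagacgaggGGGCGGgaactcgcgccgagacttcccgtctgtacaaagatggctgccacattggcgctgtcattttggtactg

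The PPARA promoter held 8 GC boxes and was 85.7% G and C, and the RXRA promoter held 6 GC boxes and was 84.0% G and C. In the RXRB promoter there was 1 GC box and 60.0% G and C. The PPARG promoter held no GC box and 2 half-sites, and was 45.0% G and C. Its start lies at -533 bases relative to that of the measured transcript, so the window shown does not reach the start of that transcript. RefSeq lists 6 starts for PPARG, which the single row of PPARG does not separate. A promoter was matched to 9781 of the 12039 tested genes (81.2%). Of these promoters, 71.1% held at least 1 GC box, 5.44% held at least 6, and 9.75% held at least 1 half-site, with 0.583% holding at least 2. The median G and C of promoters was 65.7%, and 0.348% of the matched promoters were at or above that of PPARA. Among the other members, PPARD had 3 GC boxes and NCOR1 and MED1 had none. MED1 was also lower in Huh7, as was PPARGC1B, for which, as for PPARGC1A, no promoter was matched. The promoters shown were picked by the line values, and a link between promoter sequence and level was not tested. These are matches of letters in a window, and binding was not measured.

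ODC1 itself, the target of the siRNA, was at 7.501 RPKM with ODC1 siRNA and 167 RPKM with NC siRNA in Huh7, and at 25.01 RPKM with ODC1 siRNA and 103 RPKM with NC siRNA in Huh1. The targeted transcript was thus lower with its siRNA in both lines. Depth, recovered from the smallest steps in the values, was between 10215332 and 13384836 reads per library, and 1 read on a transcript of 2 kb was worth between 0.0374 and 0.0489 RPKM. The hepatocyte markers were present in all 4 libraries, with ALB (albumin) between 920 and 3447 RPKM. Of the 6 adipocyte markers, FABP4 was at 0 in all libraries, ADIPOQ was at no more than 0.0916 RPKM and LEP at no more than 0.116 RPKM. PLIN1 was at 0.0661 and 0.0553 RPKM in Huh7 and at 0.721 and 0.592 RPKM in Huh1, LIPE at 0.103 and 0.0933 RPKM in Huh7 and at 0.657 and 0.831 RPKM in Huh1, and CFD, the 1 tested, between 1.14 and 2.69 RPKM. Of the 6 blood cell markers CD68 was the 1 tested, lower in Huh7 at 6.05 and 3.71 RPKM than in Huh1 at 24.8 and 23.3 RPKM. The fibroblast list behaved differently: 4 of its 6 markers were tested, and all 4 were called higher in Huh7. Between the lines 73.9% of all tested genes were called. COL1A1, COL1A2 and COL3A1 were under 1 RPKM in both Huh1 libraries. They passed the filter of 1 RPKM in some library only through Huh7, so the filter set their direction. The 6 markers summed to 370 and 284 RPKM in Huh7 (ODC1 and NC siRNA) and to 15.7 and 12.1 RPKM in Huh1, with COL1A1 at 128 and 107 RPKM in Huh7 and at 0.0763 and 0.115 RPKM in Huh1, while DCN was at no more than 0.731 RPKM in any library. This difference moves with every difference between the lines, and its part in them was not tested. LUM, another of these markers, was also called higher with ODC1 siRNA, at 193 RPKM against 143 RPKM with NC siRNA in Huh7 and at 15.5 RPKM against 12.0 RPKM in Huh1 (log2 fold change 0.39, limma adjusted p = 0.040, a call that held under 2 of 8 alternatives), and its part in the siRNA values below was not tested either.

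**Figure D1:**
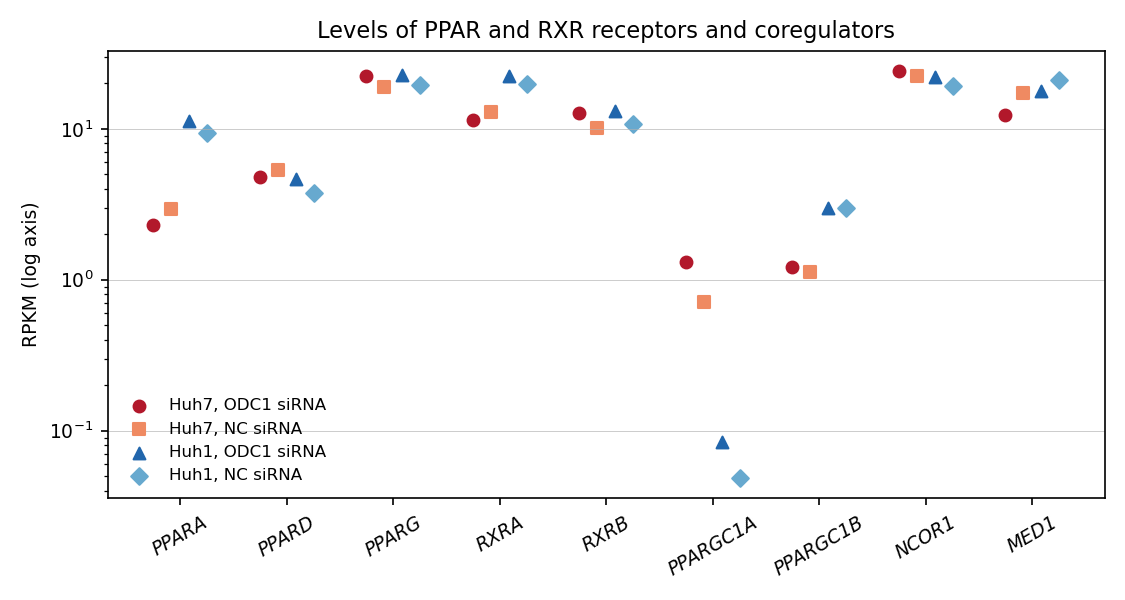
RPKM of the 9 genes (log axis) in the 4 libraries, 1 point per library, in the order Huh7 with ODC1 and NC siRNA and Huh1 with ODC1 and NC siRNA. PPARA, RXRA and PPARGC1B sit lower in Huh7 than in Huh1, PPARGC1A sits far higher in Huh7, and PPARG and RXRB lie at nearly the same height in both lines.

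PPARG was the most abundant PPAR in every library. It stood at 22.4 RPKM with ODC1 siRNA and 18.8 RPKM with NC siRNA in Huh7, and at 22.8 RPKM with ODC1 siRNA and 19.4 RPKM with NC siRNA in Huh1. The 2 libraries with ODC1 siRNA were both above the 2 with NC siRNA, and the lines hardly differed under either siRNA. PPARA, the hepatic fatty acid oxidation receptor, was at 2.30 RPKM with ODC1 siRNA and 2.96 RPKM with NC siRNA in Huh7, and at 11.3 RPKM with ODC1 siRNA and 9.35 RPKM with NC siRNA in Huh1. Both Huh7 libraries were far below both Huh1 libraries, and the library with ODC1 siRNA was the lower one in Huh7 and the higher one in Huh1. PPARD was at 4.78 RPKM with ODC1 siRNA and 5.36 RPKM with NC siRNA in Huh7, and at 4.64 RPKM with ODC1 siRNA and 3.76 RPKM with NC siRNA in Huh1. The Huh7 libraries were both above the Huh1 libraries, by little where ODC1 siRNA was used.

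The make-up of the PPAR pool followed from these levels. PPARG accounted for 76.0% of the summed RPKM of the 3 PPARs with ODC1 siRNA and 69.3% with NC siRNA in Huh7, and for 58.9% with ODC1 siRNA and 59.7% with NC siRNA in Huh1. The share of PPARA was 7.81% with ODC1 siRNA and 10.9% with NC siRNA in Huh7, and 29.1% with ODC1 siRNA and 28.8% with NC siRNA in Huh1. PPARD made up 16.2% and 19.8% in Huh7 and 12.0% and 11.6% in Huh1, each with ODC1 and then NC siRNA. Between ODC1 and NC siRNA the shares in Huh1 thus moved by less than 1 percentage point, while in Huh7 PPARG took a larger share and the others smaller ones with ODC1 siRNA. PPARG was 9.73 and 6.34 times the level of PPARA in Huh7 and 2.02 and 2.07 times in Huh1, again with ODC1 and then NC siRNA. The summed PPAR level was 29.5 and 27.1 RPKM in Huh7 and 38.7 and 32.5 RPKM in Huh1, so the pool in Huh7 was smaller mainly by its PPARA.

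RXRA, the main RXR of liver, was at 11.4 RPKM with ODC1 siRNA and 12.98 RPKM with NC siRNA in Huh7, and at 22.4 RPKM with ODC1 siRNA and 19.8 RPKM with NC siRNA in Huh1. As with PPARA, the Huh7 libraries were both below the Huh1 libraries, and the order of the siRNAs was opposite in the lines. RXRB, the widely expressed RXR, was at 12.7 RPKM with ODC1 siRNA and 10.2 RPKM with NC siRNA in Huh7, and at 13.1 RPKM with ODC1 siRNA and 10.8 RPKM with NC siRNA in Huh1. Here both libraries with ODC1 siRNA were above both with NC siRNA, as for PPARG. Exons of RXRB overlap SLC39A7 on the opposite strand by 244 bases, and its level is uncertain since a use of strand in counting is not stated. RXRA made up 47.4% of the RXRA and RXRB sum with ODC1 siRNA and 56.1% with NC siRNA in Huh7, and 63.2% with ODC1 siRNA and 64.7% with NC siRNA in Huh1. RXRB was therefore the more abundant RXR only in Huh7 with ODC1 siRNA. RXRG, the third RXR, reached at most 0.0017 RPKM. The RXR sum was between 0.817 and 0.943 times the PPAR sum in the 4 libraries.

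**Figure D2:**
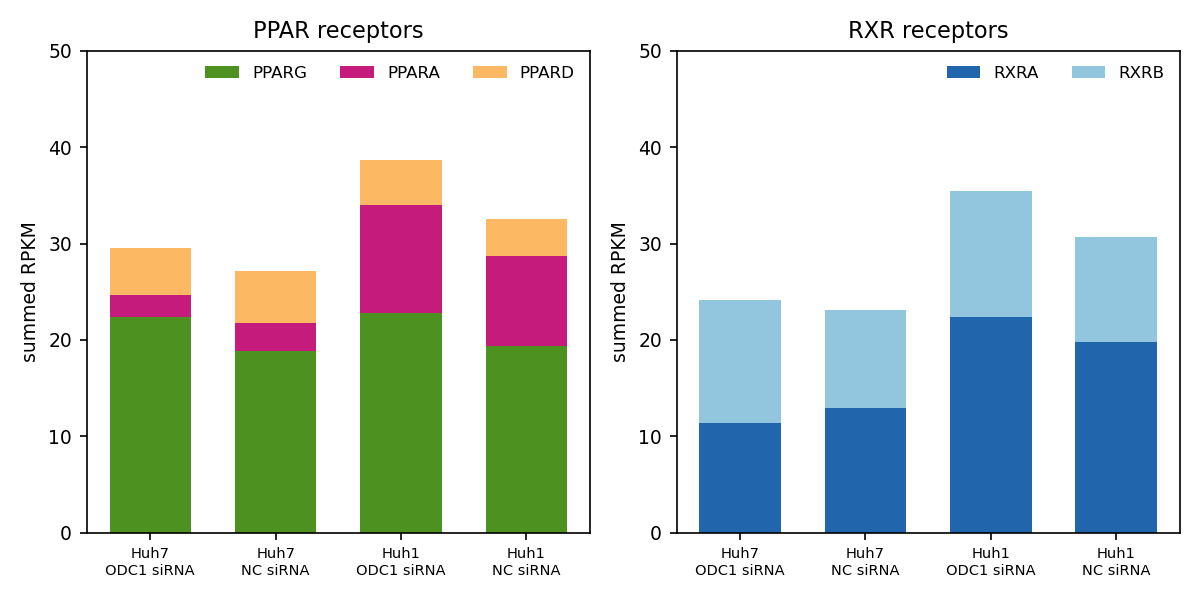
Summed RPKM of the PPAR receptors (left) and of RXRA and RXRB (right) in the 4 libraries, stacked by gene. PPARG fills about the same height in each bar, while PPARA and RXRA are the shorter segments in Huh7, where PPARA is 7.81% and 10.9% of the PPAR sum, against 29.1% and 28.8% in Huh1.

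The coregulators differed in level by more than the receptors. PPARGC1A encodes PGC-1α, the coactivator of mitochondrial biogenesis and hepatic gluconeogenesis. It was at 1.30 RPKM with ODC1 siRNA and 0.714 RPKM with NC siRNA in Huh7, and at 0.0846 RPKM with ODC1 siRNA and 0.0485 RPKM with NC siRNA in Huh1. These levels are estimated to rest on 84 and 55 reads in Huh7 and on only 6 and 4 reads in Huh1. PPARGC1B encodes the related coactivator PGC-1β, and it was at 1.21 RPKM with ODC1 siRNA and 1.12 RPKM with NC siRNA in Huh7, and at 2.97 RPKM with ODC1 siRNA and 2.98 RPKM with NC siRNA in Huh1. The lines thus stood in opposite order for the PGC-1 genes, and the siRNA moved PPARGC1B by little in either. PPARGC1A was 1.08 times PPARGC1B with ODC1 siRNA and 0.634 times with NC siRNA in Huh7, and 0.0285 times with ODC1 siRNA and 0.0163 times with NC siRNA in Huh1.

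NCOR1, the nuclear receptor corepressor that carries histone deacetylase 3, was at 24.1 RPKM with ODC1 siRNA and 22.4 RPKM with NC siRNA in Huh7, and at 21.9 RPKM with ODC1 siRNA and 19.3 RPKM with NC siRNA in Huh1. All 4 libraries lay close together. The NCOR1 value is uncertain because 3 pseudogene copies exist and 509 exonic bases overlap antisense genes, among them PIGL. MED1, the Mediator subunit that docks on liganded nuclear receptors, was at 12.4 RPKM with ODC1 siRNA and 17.4 RPKM with NC siRNA in Huh7, and at 17.7 RPKM with ODC1 siRNA and 21.0 RPKM with NC siRNA in Huh1. It was the one member with the lower value in the ODC1 siRNA library of both lines.

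Ranked by their mean over the 2 siRNAs, the levels in Huh7 ran from NCOR1 and PPARG through MED1, RXRA, RXRB, PPARD and PPARA to PPARGC1B and PPARGC1A. The ranges over the 2 libraries overlapped between MED1 and RXRA, between RXRA and RXRB, and between the PGC-1 genes. MED1 was above RXRA under both siRNAs, while RXRA and RXRB, and the PGC-1 genes, changed places between the siRNAs. The 2 libraries differ by siRNA and are not replicates, so the order of neighbours was not tested. In Huh1 the order was RXRA, PPARG, NCOR1, MED1, RXRB, PPARA, PPARD, PPARGC1B and PPARGC1A. There the ranges of RXRA, PPARG, NCOR1 and MED1 overlapped in turn, as did those of RXRB and PPARA. RXRB was above PPARA in both Huh1 libraries. Among tested genes of the same library, PPARG lay between percentiles 65.7 and 72.3 of RPKM, and PPARA at percentiles 15.99 and 19.5 in Huh7 and at 52.5 and 47.6 in Huh1.

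The first comparison asked which of these transcripts differed between ODC1 and NC siRNA. None of the 9 passed the test over both lines, and none changed by 2-fold within a line. The test was limma on log2(RPKM + 1) with line and siRNA as terms, adjusted by the Benjamini and Hochberg method over all 12039 genes with at least 1 RPKM in some library and read at 0.05, and it called 255 genes (2.12%), 181 higher and 74 lower with ODC1 siRNA (290 higher and 195 lower after upper quartile scaling). At an unadjusted p under 0.05 limma listed 3 of the 9 members (PPARG, RXRB and MED1), beside 2286 genes of the whole table (18.99%). The fit had 1 residual degree of freedom, and its standard errors come mostly from other genes of like expression. A change of at least 2-fold on the log2(RPKM + 1) scale was found for 0 of 9 members in Huh7, where 88 of the 11416 genes that reached 1 RPKM in a Huh7 library changed so (0.771%), and for 0 of 8 in Huh1, where 9 of 10912 did (0.0825%). The 8 leave out PPARGC1A, which was under 1 RPKM in both Huh1 libraries and passed the filter of the whole fit only through Huh7 with ODC1 siRNA, the library where it was highest. A member missing these rules is not thereby shown to be unchanged.

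MED1 came nearest to the threshold. Its log2 fold change was -0.45 in Huh7 and -0.23 in Huh1, and -0.34 ± 0.096 (SE) over both lines, with a limma adjusted p of 0.109. On the RPKM values themselves, the ratio of ODC1 to NC siRNA was 0.715 in Huh7 (95% counting interval 0.652 to 0.784) and 0.843 in Huh1 (0.782 to 0.910). These exact intervals are taken from estimated reads and cover counting error only, not the spread between cultures.

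RXRB and PPARG were the members with the steadiest higher values. RXRB had log2 fold changes of 0.29 in Huh7 and 0.25 in Huh1, and 0.27 ± 0.096 (SE) over both lines with a limma adjusted p of 0.180. Its ratio of ODC1 to NC siRNA was 1.25 in Huh7 (1.08 to 1.45) and 1.21 in Huh1 (1.05 to 1.39). PPARG had log2 fold changes of 0.24 in Huh7 and 0.22 in Huh1, and 0.23 ± 0.085 (SE) over both lines with a limma adjusted p of 0.192. The ratio for PPARG was 1.19 in Huh7 (1.04 to 1.37) and 1.17 in Huh1 (1.03 to 1.34). For both genes the lines gave nearly the same estimate, and the counting intervals lay above 1, but the test over all genes was not passed. NCOR1 showed smaller values of the same sign, 0.10 in Huh7 and 0.18 in Huh1, with 0.14 ± 0.085 (SE) over both lines and a limma adjusted p of 0.414.

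PPARA, PPARD and RXRA had opposite signs in the lines. The log2 fold change of PPARA was -0.26 in Huh7 and 0.24 in Huh1, and the counting interval of its ratio lay below 1 in Huh7 (0.777, 0.656 to 0.918) and above 1 in Huh1 (1.20, 1.11 to 1.30). For PPARD it was -0.14 in Huh7 and 0.24 in Huh1, with a ratio of 0.893 in Huh7 (0.732 to 1.08) and 1.23 in Huh1 (1.01 to 1.52). RXRA had -0.17 in Huh7 and 0.17 in Huh1, with intervals that held 1 in both lines (0.881, 0.737 to 1.06 in Huh7, and 1.13, 0.992 to 1.28 in Huh1). The RXRA reads were estimated at a length of 1846 bases, while exons of the gene cover 11083 bases. A longer measured transcript would narrow these intervals. Over both lines the estimates of PPARA, PPARD and RXRA were near 0, with limma adjusted p between 0.868 and 0.997. The pooled fit thus gives a mean of unlike values for these genes. PPARGC1B also differed in sign, at 0.06 in Huh7 and -0.00 in Huh1, too small to read. Such opposite signs were found in 4 of the 9 members and in 34.7% of all tested genes, and with 1 library per group this contrast was not tested.

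PPARGC1A showed the largest difference in RPKM, 1.83 times higher with ODC1 siRNA than with NC siRNA in Huh7 (1.28 to 2.61), and 1.74 times in Huh1 (0.424 to 8.62), where its few reads allow no direction. On the log2(RPKM + 1) scale, which understates the change of low genes, it was 0.43 in Huh7 and 0.05 in Huh1, with 0.24 ± 0.190 (SE) over both lines and a limma adjusted p of 0.543. The median log2 fold change of the members was 0.06 in Huh7 and 0.18 in Huh1, beside medians of -0.00 and 0.02 over all genes tested.

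**Figure D3:**
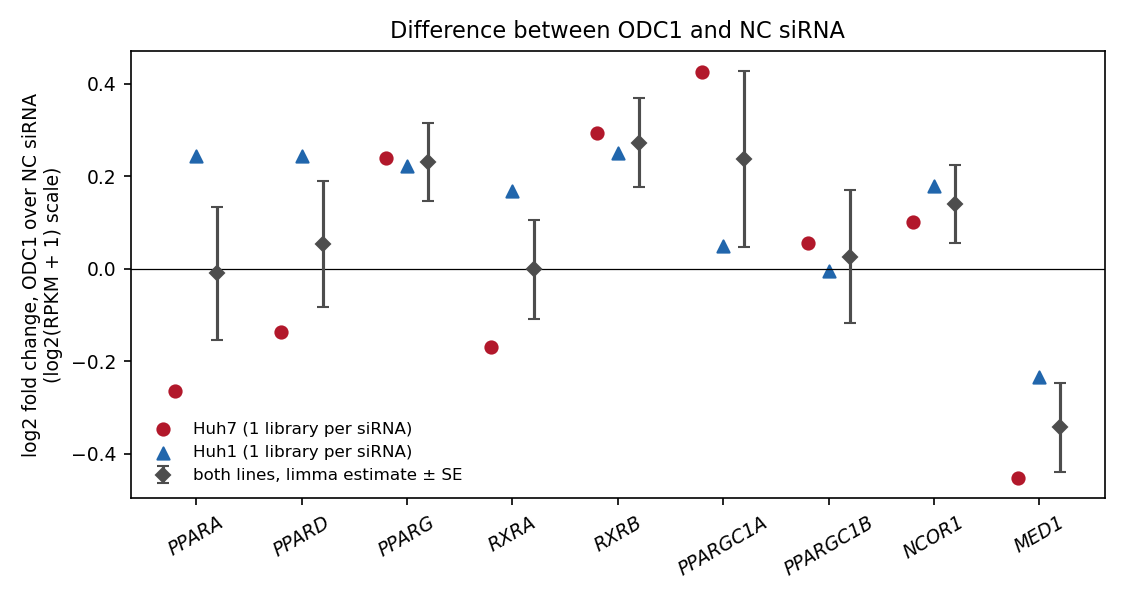
Log2 fold change of ODC1 over NC siRNA (log2(RPKM + 1) scale) for each gene in Huh7 and in Huh1, 1 pair of libraries each, and the limma estimate over both lines with its SE. PPARG and RXRB lie above 0 and MED1 below 0 in both lines, and PPARA, PPARD and RXRA lie below 0 in Huh7 and above 0 in Huh1.

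The second comparison set the lines against each other, with the siRNA as a term in the same fit. Huh7 had lower PPARA, PPARGC1B, RXRA and MED1 and higher PPARGC1A than Huh1, so 5 of the 9 members were called. This is below the background, since 8891 of the 12039 genes (73.9%) were called between the lines, 5183 higher and 3708 lower in Huh7 (4444 higher and 4264 lower after quantile normalization). The 1 residual degree of freedom of this fit measures how unlike the line difference was under the 2 siRNAs. The p-values draw mostly on other genes of like expression, and do not measure the spread between independent cultures. The median difference of all tested genes was 0.13 on the log2 scale in favour of Huh7, and each member is also given relative to it. On the log2(RPKM + 1) scale a difference of at least 2-fold was found for PPARA (lower) and PPARGC1A (higher) of 9 members with ODC1 siRNA. There 3225 of 11843 genes differed so (27.2%). With NC siRNA it was found for PPARA of 8 members (PPARGC1A was under 1 RPKM in both), where 3239 of 11896 genes differed so (27.2%). PPARGC1A entered the comparison with ODC1 siRNA only through the Huh7 library in which it was high, so its place in the ODC1 siRNA count follows from the filter. This scale understates differences of low genes. In RPKM, PPARGC1B was 2.45 times as high in Huh1 as in Huh7 with ODC1 siRNA and 2.65 times with NC siRNA.

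PPARA was lower in Huh7 by the widest margin, with a log2 difference of -1.64 ± 0.144 (SE), or -1.77 relative to the median of all genes (limma adjusted p = 1.2e-05). In RPKM the Huh7 level was 0.204 times that of Huh1 with ODC1 siRNA (0.177 to 0.235) and 0.317 times with NC siRNA (0.281 to 0.356). PPARGC1B followed at -0.87 ± 0.144 (SE), or -1.01 relative to the median (limma adjusted p = 0.00057), with ratios of 0.408 with ODC1 siRNA (0.332 to 0.501) and 0.378 with NC siRNA (0.311 to 0.458). RXRA differed by -0.74 ± 0.107 (SE), or -0.88 relative to the median (limma adjusted p = 0.00025), with ratios of 0.510 with ODC1 siRNA (0.433 to 0.603) and 0.654 with NC siRNA (0.564 to 0.757). All of these were lower in Huh7 under both siRNAs. MED1 had the smallest called difference, -0.37 ± 0.096 (SE), or -0.50 relative to the median (limma adjusted p = 0.00714), and its call was lost, with an adjusted p of 0.114, when the siRNA term was left out.

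PPARGC1A was the one member called higher in Huh7, by 0.90 ± 0.190 (SE) on the log2(RPKM + 1) scale, or 0.77 relative to the median (limma adjusted p = 0.0025). It passed the filter of 1 RPKM only through Huh7 with ODC1 siRNA, so the filter itself favoured this direction. With no filter, over 16855 genes, its adjusted p was 0.0035. In RPKM it was 15.4 times higher in Huh7 with ODC1 siRNA (6.78 to 43.1) and 14.7 times with NC siRNA (5.57 to 57.3), the wide intervals reflecting the 6 and 4 reads in Huh1.

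The other 4 members did not pass. PPARG differed by -0.03 ± 0.085 (SE) and RXRB by -0.06 ± 0.096 (SE), with limma adjusted p of 0.739 and 0.574. The Huh7 over Huh1 ratio of PPARG was 0.983 with ODC1 siRNA (0.859 to 1.12) and 0.969 with NC siRNA (0.848 to 1.11), and that of RXRB was 0.970 (0.840 to 1.11) and 0.939 (0.813 to 1.08). Relative to the median of all genes these differences were -0.17 for PPARG and -0.19 for RXRB. PPARD, at 0.23 ± 0.136 (SE), and NCOR1, at 0.17 ± 0.085 (SE), had limma adjusted p of 0.157 and 0.10, and lay 0.10 and 0.04 above the median.

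**Figure D4:**
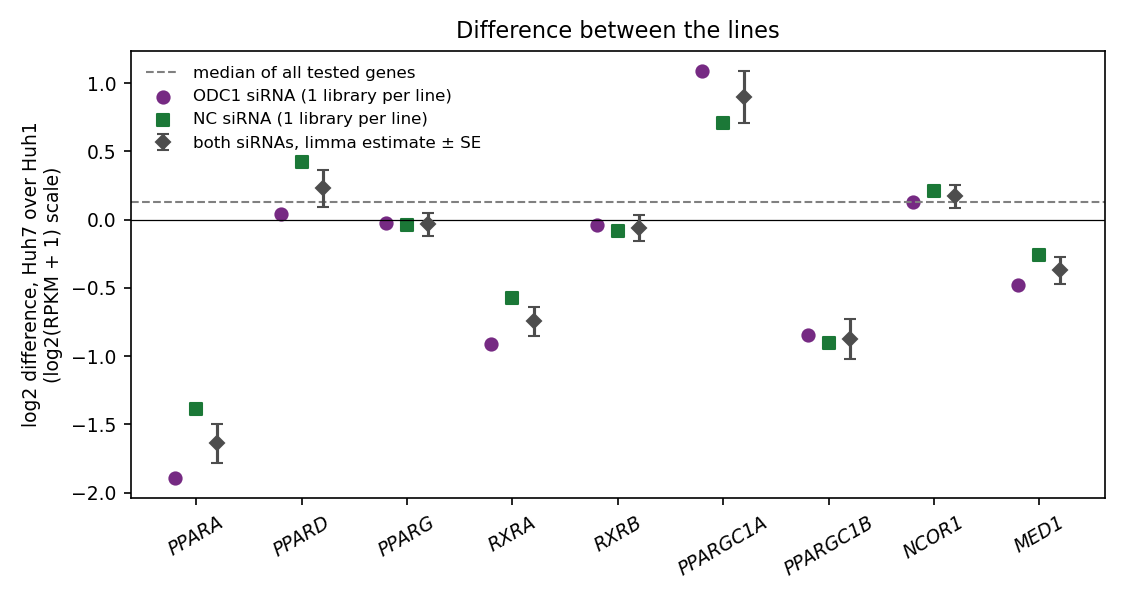
Log2 difference of Huh7 over Huh1 (log2(RPKM + 1) scale) for each gene with ODC1 siRNA and with NC siRNA, 1 pair of libraries each, and the limma estimate over both siRNAs with its SE. The dashed line is the median of all tested genes, 0.13. PPARA, PPARGC1B, RXRA and MED1 lie below it and PPARGC1A above it, while PPARG and RXRB lie near 0.

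The rest of the pathway was described with lists of known genes. Counts between the lines in these lists stand beside the 73.9% of all tested genes called there. Of 29 tested PPAR target genes, out of 32 listed, 1 was called higher with ODC1 siRNA and none lower. This was SLC25A20, the mitochondrial carnitine and acylcarnitine carrier, at 15.2 RPKM with ODC1 siRNA and 9.84 RPKM with NC siRNA in Huh7, and at 36.7 RPKM with ODC1 siRNA and 24.8 RPKM with NC siRNA in Huh1, a log2 fold change of 0.56 ± 0.086 (SE) over both lines (limma adjusted p = 0.022). The call held under 3 of 8 alternatives, with adjusted p between 0.0085 and 1.00. The list's median log2 fold change was -0.09 in Huh7, with 10 of 29 values above 0, and 0.14 in Huh1, with 21 of 29 above 0. Targets with unlike values in the lines included ACADM, the medium-chain acyl-CoA dehydrogenase, at -0.72 in Huh7 and -0.11 in Huh1, and PDK4, which restrains pyruvate oxidation, at 0.02 in Huh7 and 0.66 in Huh1. MLYCD, malonyl-CoA decarboxylase, was at 0.56 in Huh7 and 0.14 in Huh1. None of these 3 passed the test.

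Between the lines, 19 of the 29 targets were lower and 6 higher in Huh7, with a median log2 difference of -0.73 beside 0.13 for all genes. CD36, VNN1, PDK4, CIDEC, ACOT12, SLC27A2 and LPL were under 1 RPKM in both Huh7 libraries and passed the filter only through Huh1. UCP2 passed it only through Huh7. The filter thus set the direction of these targets, which are part of the counts. CD36, the fatty acid transporter, was at 0.290 RPKM with ODC1 siRNA and 0.552 RPKM with NC siRNA in Huh7, and at 38.3 RPKM with ODC1 siRNA and 48.1 RPKM with NC siRNA in Huh1. VNN1, the pantetheinase vanin, was at 0.352 and 0.224 RPKM in Huh7 and at 155 and 150 RPKM in Huh1, with ODC1 and then NC siRNA. Most tested targets were called lower in the line with less PPARA and RXRA, a count that includes targets whose direction the filter set. Whether these differences are linked was not tested. Hepatocyte markers also moved between the lines, with 8 of 13 lower and 5 higher in Huh7, and between the siRNAs, with ALB, FGA and FGG lower and TTR higher with ODC1 siRNA, calls that held under between 1 and 3 of 8 alternatives. Their summed level was 2942 and 3748 RPKM in Huh7 and 4820 and 5585 RPKM in Huh1, and their part in the values of the receptors and targets was not tested.

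Other nuclear receptors that pair with RXR gave no call among 12 tested between the siRNAs, with medians of 0.03 in Huh7 and -0.01 in Huh1. Between the lines 8 of the 12 were called, all lower in Huh7, a share of calls no higher than the 73.9% of all genes. Among them NR1I2 passed the filter only through Huh1, so the filter set its direction. NR1H4, the bile acid receptor, was at 6.59 and 6.65 RPKM in Huh7 and at 35.7 and 41.9 RPKM in Huh1, and NR1I2, the xenobiotic receptor, was listed at 0 in both Huh7 libraries and at 3.31 and 3.43 RPKM in Huh1, each with ODC1 and then NC siRNA. The thyroid hormone receptor THRA was at 4.75 and 5.015 RPKM in Huh7 and at 8.26 and 4.57 RPKM in Huh1, and THRB was at 3.80 and 2.61 RPKM in Huh7 and at 9.64 and 7.90 RPKM in Huh1. Neither passed the siRNA test. NR1H2, an oxysterol receptor, had log2 fold changes of 0.46 in Huh7 and 0.11 in Huh1 (limma adjusted p = 0.190).

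Among the PGC-1 family and the factors it coactivates, none of 10 tested genes was called between the siRNAs, with medians of -0.07 in Huh7 and -0.03 in Huh1. TFAM, the mitochondrial transcription factor, was at 34.9 and 43.2 RPKM in Huh7 and at 66.5 and 77.9 RPKM in Huh1, with ODC1 and then NC siRNA, a log2 fold change of -0.26 ± 0.073 (SE) over both lines with a limma adjusted p of 0.106. HNF4A, the hepatocyte nuclear receptor, had log2 fold changes of -0.38 in Huh7 and -0.12 in Huh1, and FOXO1, the gluconeogenic forkhead factor, had -0.43 in Huh7 and -0.08 in Huh1. Between the lines 5 of the 10 were lower and 2 higher in Huh7, the higher ones being PPARGC1A and FOXO1. Of these, PPARGC1A passed the filter only through Huh7 with ODC1 siRNA, so the filter favoured its direction. ESRRA, the oestrogen-related receptor that PGC-1α acts through, was lower, at 10.5 and 8.64 RPKM in Huh7 and at 25.4 and 24.7 RPKM in Huh1.

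Coactivators other than PGC-1 gave no siRNA call among 12 tested, and their medians were 0.05 in Huh7 and 0.11 in Huh1. NCOA3, a steroid receptor coactivator, had a log2 fold change of 0.31 in each line (limma adjusted p = 0.106). Its level was 13.8 and 10.9 RPKM in Huh7 and 33.0 and 26.4 RPKM in Huh1, with ODC1 and then NC siRNA. SMARCD3, a chromatin remodelling subunit, was the widest of the list, at 11.04 and 24.0 RPKM in Huh7 and at 1.67 and 1.18 RPKM in Huh1, and its log2 fold changes of -1.05 in Huh7 and 0.29 in Huh1 did not pass the test. NCOA1 and EP300, a steroid receptor coactivator and a histone acetyltransferase, had values of 0.04 and 0.17 in Huh7 and of 0.30 and 0.07 in Huh1. CITED2, a partner of the acetyltransferases, was higher in Huh7, at 70.4 and 73.0 RPKM, against 25.2 and 22.1 RPKM in Huh1.

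The corepressors, 9 tested with NCOR1 among them, also held no siRNA call. Their medians were -0.14 in Huh7, with 2 of 9 above 0, and 0.09 in Huh1, with 6 of 9 above 0. NRIP1, which represses oxidative genes, had log2 fold changes of 0.45 in Huh7 and 0.09 in Huh1, CORO2A of -0.55 in Huh7 and -0.17 in Huh1, and the deacetylase SIRT1 of -0.35 in Huh7 and -0.00 in Huh1. TBL1X, the exchange factor of the NCOR complex, was at 29.5 and 29.7 RPKM in Huh7 and at 14.3 and 11.5 RPKM in Huh1.

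Of 30 Mediator subunits, 1 was called higher with ODC1 siRNA and none lower. MED11, a head module subunit, was at 22.6 RPKM with ODC1 siRNA and 11.3 RPKM with NC siRNA in Huh7, and at 18.99 RPKM with ODC1 siRNA and 10.9 RPKM with NC siRNA in Huh1, a log2 fold change of 0.85 ± 0.097 (SE) with a limma adjusted p of 0.010. The call held under 5 of 8 alternatives, with adjusted p between 0.0019 and 1.00. The medians of the complex were 0.03 in Huh7 and 0.05 in Huh1, and MED1 had the lowest value of the 30 in each line. MED20 and MED29 were at 0.46 and 0.40 in Huh7 and at 0.18 and 0.17 in Huh1, and did not pass. Between the lines 10 of the 30 subunits were higher and 7 lower in Huh7, MED1 among the lower ones. The tail subunit MED15 was at 72.9 and 65.9 RPKM in Huh7 and at 10.3 and 9.92 RPKM in Huh1, and MED28 was at 39.5 and 39.4 RPKM in Huh7 and at 8.36 and 9.215 RPKM in Huh1.

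**Figure D5:**
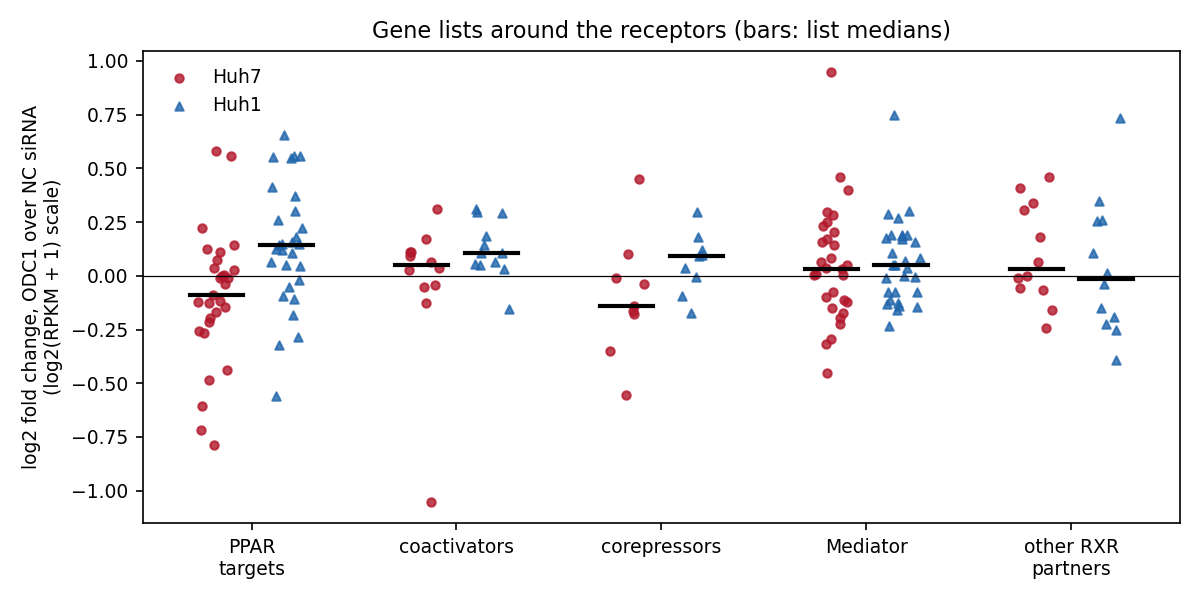
Log2 fold change of ODC1 over NC siRNA (log2(RPKM + 1) scale) for the tested genes of 5 lists, 1 point per gene, in Huh7 (left of each pair) and in Huh1, with the list medians as bars. For the PPAR targets the medians are -0.09 in Huh7 and 0.14 in Huh1, and for the corepressors -0.14 and 0.09.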

How the data were processed

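RPKM values per RefSeq transcript were computed and deposited by the authors, with no header in the files. The submitters' processing notes name CASAVA 1.8.2, TopHat2 2.0.9 and the build hg19, and no source used here names the counting program or a use of strand. Members and lists were chosen with earlier results of these data known. Here values were taken as log2(RPKM + 1). Limma 3.58.1 (R 4.3.3), with terms for siRNA and line and a trend on intensity, was fitted to the 12039 genes that reached 1 RPKM in some library, and p-values were adjusted over all of them. The line term is the block that pairs the siRNA libraries. Read numbers were estimated from recovered depth and transcript length, 1818 bases for PPARG and GENCODE lengths for most others. Only between 57.2% and 59.8% of the low values compared had ratios of whole numbers (within a small multiple of 1e-06, relative). No count model was therefore used. Counting intervals are exact Clopper-Pearson intervals at 95%. Named genes were the members, ODC1, and from each list up to 4 with the largest siRNA value, up to 2 with the largest line difference and any siRNA call; not all are described, and 1 is not reported here. Alternatives were other scalings, pseudocounts, filters, trends and terms.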

Additional observations from a re-analysis of the deposited data

Results flagged for a closer look

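For 4 genes the ODC1 siRNA library lay on opposite sides of its NC siRNA library in the lines. The Huh7 minus Huh1 difference of the log2 fold change was -0.51 for PPARA, -0.38 for PPARD, -0.34 for RXRA and 0.060 for PPARGC1B. With 1 library per group none of these differences was tested, and opposite signs were found in 34.7% of all tested genes.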

How the results depend on the processing

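No member was called between ODC1 and NC siRNA under any of the 8 alternatives run. The number of genes called by limma, 255, became 485 with upper quartile scaling and 340 with a trend on counting variance. It became 108 with a filter at 5 RPKM, 54 with a pseudocount of 0.1 and 52 with quantile normalization. With no filter, no variance trend or no line term it was 0. In the reported fit 2286 genes had an unadjusted limma p under 0.05. The adjusted p of MED1 lay between 0.0636 and 1.00 over these alternatives. Between the lines, 3 members were called with a filter at 5 RPKM, which left 7 to test. NCOR1 was called with a trend on counting variance (adjusted p = 0.0379). With a 1.5-fold rule the genes changed were 650 in Huh7 and 150 in Huh1 between the siRNAs, and 5652 and 5676 between the lines with ODC1 and NC siRNA. With a pseudocount of 0.1 they were 236 in Huh7 and 45 in Huh1. After quantile normalization the member PPARGC1A was under 2-fold between the lines with ODC1 siRNA, while PPARGC1B reached 2-fold with either siRNA. PPARGC1B also reached it with either siRNA at a pseudocount of 0.1. RXRA reached it with ODC1 siRNA after upper quartile scaling. Leaving out 1 library removes the residual degree of freedom, so what is left is the value of the other line, given with each result. The line term pairs the siRNA libraries in the reported fit, and leaving it out gave the 0 calls above. Depth limits PPARGC1A most, at 6 and 4 reads in Huh1.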
